A study of Mus musculus with 24 samples.

Results

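The comparison described here sets lungs of Cenpj mutant mouse embryos against lungs of control embryos, over all genes. It uses 8 of the 24 libraries of the study, chosen by their labels as the 4 Cenpj mutant lungs and the 4 control lungs. All are bulk RNA sequencing libraries of total RNA from whole lungs dissected at embryonic stage E11.5. Cenpj mutants had the genotype ShhCre Cenpj-/lox, with 1 null and 1 floxed Cenpj allele. Controls had the genotype ShhCre Cenpj+/lox, with 1 intact and 1 floxed allele, so Cre and a floxed allele were present in both groups. The study also holds lungs of Ift88 mutants, ShhCre Ift88-/lox, which are used below as a second point of reference, and intestines of all 3 genotypes.

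ShhCre is active where Shh is expressed, which in the early lung is the epithelium. A whole lung at this stage is mostly mesenchyme, together with vessels, nerves, blood and mesothelium. The mutant lungs therefore mix epithelial cells that can lose Cenpj with other cells that keep the unrecombined floxed allele beside the null one. In such bulk samples fewer cells of a type and less RNA per cell cannot be told apart. The labels do not say whether each library came from a separate embryo, so the p-values measure the spread between these libraries.

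Cenpj, also called CPAP or SAS-4, is a centriole protein needed to build new centrioles. Dividing mouse cells that lack centrioles are known to activate p53 through 53BP1 and USP28, which leads to arrest or death. Centrioles also form the base of the primary cilium, on which vertebrate hedgehog signalling depends. Shh is secreted by lung epithelium and received by mesenchyme, where it raises Ptch1, Gli1 and Hhip. Ift88 acts in transport within the cilium, so its loss removes cilia from cells that keep their centrioles.

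The 8 libraries held 96.1 to 120.9 M reads and 22467 to 26529 detected genes. Ribosomal RNA took 7407.5 to 12862.5 reads per M in the 4 Cenpj mutant lungs, against 296.9, 454.6, 1073.8 and 14428.4 in the 4 control lungs. All Cenpj mutant lungs and control lung 3 are called ribosomal-rich below, meaning over 2000 ribosomal reads per M. Genotype and library kind thus coincided in 7 of the 8 libraries, and only control lung 3 sits with the mutants. The short nuclear RNA Rn7sk followed the same split, at 2592 to 7113 normalized counts in mutants and 4297 in control lung 3, against 39.0 to 63.0 in the other controls. Control lung 1 was the 1 male library by Xist and Ddx3y. Liver genes, which mark neighbouring tissue, summed to 16637 and 11058 in Cenpj mutant lungs 3 and 4, to 456 and 1278 in the other mutants, and to 554 to 7109.8 in controls. Nkx2-1 and Epcam, which mark lung and other epithelium, were read in all 8 libraries, at no fewer than 2977 and 4121 normalized counts.

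Cenpj itself had 2133, 2958, 2636 and 2580.5 normalized counts in the Cenpj mutant lungs, against 3590.5, 4164, 3717 and 2259 in the control lungs. Control lung 4 lay within the range of the mutants, and the other controls lay above all of them. The log2 fold change was -0.39 (SE 0.16), which did not pass the test (limma with Benjamini-Hochberg adjustment over all genes, adjusted p = 0.339). An exact two-sided permutation test over the 8 libraries gave p = 0.114, where the smallest value possible was 0.0286. Without control lung 4 the log2 fold change was -0.58 (limma, adjusted p = 0.0353). That library was the control inside the mutant range, so leaving it out lowers the value by construction and is no test of the gene. The position of the floxed exons is not given by the labels, and non-epithelial cells keep Cenpj, so the gene count is a weak check of the deletion.

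Of 31361 genes tested, 161 passed an adjusted p under 0.05, which is 0.513%. At that share a short list can hold no gene past the threshold without its genes being unchanged. Of the 161 genes, 25 were higher in Cenpj mutant lungs (0.0797%) and 136 were lower (0.434%). This balance of directions did not hold with library kind as a covariate over all 24 libraries, where 71 genes were higher and 12 lower. The test was limma-trend on log2(normalized count + 1) over the 12 lung libraries, and fold changes are differences of group means on that scale. For low genes the added 1 shrinks changes, while a single library with almost no counts can enlarge them. Ranges of the groups did not overlap for 839 genes with all mutants above (2.68%) and 860 with all mutants below (2.74%). Restricted to 18119 genes with a mean of 50 normalized counts or more, these shares were 0.132% higher and 0.745% lower by the test, and 4.18% above and 4.19% below without overlap. Among genes past the threshold, all mutants lay above all controls in 23 of 25 and below them in 131 of 136. Protein-coding genes made up 23 of the 25 and 121 of the 136.

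**Figure D1:**
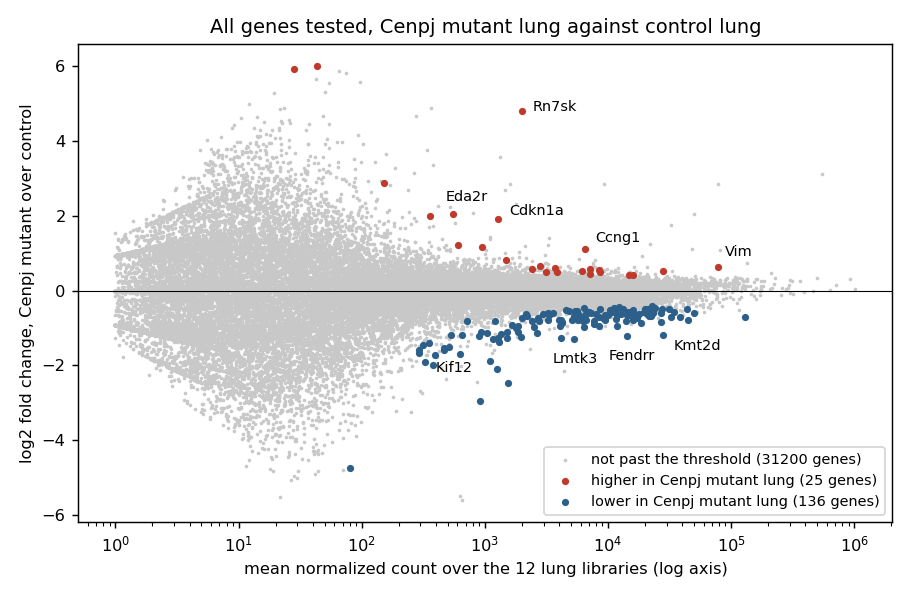
Log2 fold change of every gene tested in Cenpj mutant over control lung, against the mean normalized count of the 12 lung libraries on a log axis. Red points are the 25 genes past the threshold and higher in mutants, blue points the 136 that were lower, and grey points the rest; most coloured points lie at means above 1000.

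Several p53 target genes rose in Cenpj mutant lungs. Of 52 listed targets, 5 rose, 0 fell, and 47 did not pass. Thus 9.62% were higher, against 0.0797% of all genes and 0.132% of those with a mean of 50 or more. This list and those below were chosen with earlier results of these data known, so their shares are descriptions. The risers were Cdkn1a, Ccng1, Eda2r, Dcxr and Exoc4. All mutants lay above all controls in 13 of the 52, against 2.68% of all genes and 4.18% of those with a mean of 50 or more. All mutants lay below all controls in 0 of the 52, against 2.74% and 4.19%. The median log2 fold change of the 52 was 0.24, against 0.00 over all genes, with 36 positive and 16 negative.

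Cdkn1a and Ccng1 each carry a match to the p53 consensus response element in the 300 bases around their start, and these windows are shown because both genes rose. Sequences are RefSeq promoter windows of GRCm38.p6, from 250 bases before to 50 after a start site, given 5′ to 3′ on the gene's strand, with the matched site in capitals. The Cdkn1a window is chr17:29090729-29091028 on the plus strand, around the upstream of 2 annotated starts, and its site begins 51 bases before the start. The Ccng1 window is chr11:40755237-40755536 on the minus strand, and its site begins 195 bases before the start.
Cdkn1a: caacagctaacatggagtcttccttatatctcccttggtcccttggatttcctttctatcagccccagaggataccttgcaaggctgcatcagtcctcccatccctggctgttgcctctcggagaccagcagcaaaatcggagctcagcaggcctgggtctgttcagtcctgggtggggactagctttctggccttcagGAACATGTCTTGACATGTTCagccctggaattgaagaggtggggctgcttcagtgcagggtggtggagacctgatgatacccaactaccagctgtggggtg
Ccng1: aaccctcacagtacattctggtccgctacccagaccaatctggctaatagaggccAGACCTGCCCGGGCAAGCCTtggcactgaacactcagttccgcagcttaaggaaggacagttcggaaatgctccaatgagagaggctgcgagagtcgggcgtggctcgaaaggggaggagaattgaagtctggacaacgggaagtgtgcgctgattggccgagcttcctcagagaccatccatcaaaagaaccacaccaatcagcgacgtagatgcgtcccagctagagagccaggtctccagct
Matches were counted on both strands with up to 1 mismatch, with no spacer inside the element and a CNNG core kept on either side of its middle. Of 32841 windows, 22 held one (0.067%). Of 52 listed targets 41 had a window, and 4 of these held a match, in Ccng1, Cdkn1a, Gtse1 and Rps27l. Allowing 2 mismatches gave 107 windows (0.326%) and added Cd80 among the targets. A match describes letters in the window and does not show binding.

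Cdkn1a encodes p21, the cyclin-dependent kinase inhibitor that carries out much of the p53 arrest in G1. It had 4745, 2749.8, 1488 and 2106 normalized counts in Cenpj mutant lungs, against 718, 619, 967 and 462 in control lungs. The lowest mutant, library 3, lay above the highest control, library 3. The log2 fold change was 1.92 (SE 0.31; limma, adjusted p = 0.00682).

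Ccng1, cyclin G1, is a direct p53 target that takes part in p53 feedback. Its counts were 10576, 12626, 6241 and 10438 in Cenpj mutant lungs, against 4057, 4342, 3922 and 5769 in control lungs. All mutants were above all controls, with mutant lung 3 again the lowest. The log2 fold change was 1.11 (SE 0.17; limma, adjusted p = 0.00578).

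Eda2r, the X-linked ectodysplasin A2 receptor of the tumour necrosis factor receptor family, showed the steepest rise of the 5. Its counts were 1009, 1722, 474 and 1258 in Cenpj mutant lungs, against 266, 254, 286 and 177 in control lungs. The groups did not overlap, and the log2 fold change was 2.06 (SE 0.33; limma, adjusted p = 0.00624).

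Dcxr, dicarbonyl and L-xylulose reductase, had 1139.5, 1153, 576 and 756 counts in Cenpj mutant lungs, against 455, 361, 441 and 276 in control lungs. Every mutant exceeded every control (log2 1.21, SE 0.26; limma, adjusted p = 0.0423). Exoc4, an exocyst subunit, was higher by 0.49 on the log2 scale (SE 0.10; limma, adjusted p = 0.0366), and the groups again did not overlap.

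Another 8 targets had all mutants above all controls without passing the test. Pmaip1, which encodes the pro-apoptotic BH3-only protein Noxa, had 699, 323, 149 and 489 counts in Cenpj mutant lungs, against 107, 66.0, 2.3 and 79.8 in control lungs. The groups stood apart, while the spread within each was wide (log2 3.27, SE 0.86; limma, adjusted p = 0.0975). Ddit4l, an inhibitor of mTOR signalling, had 845, 776, 334 and 595 in Cenpj mutant lungs, against 291, 235, 153 and 100.5 in control lungs (log2 1.73, SE 0.39; limma, adjusted p = 0.0546). The others were Trp53cor1, Tap1, Ak1, Phlda3, Abhd4 and Ei24, with log2 fold changes of 0.29 to 2.21 and adjusted p of 0.0704 to 0.588 (limma). The value of 2.21 was for Trp53cor1, which had 0.0 counts in control lung 4 and 22.5 to 47.2 in the other controls. Across the 13 targets whose groups did not overlap, mutant lung 1 was the highest mutant in 9 and mutant lung 2 in 4, while mutant lung 3 was the lowest in 11.

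**Figure D2:**
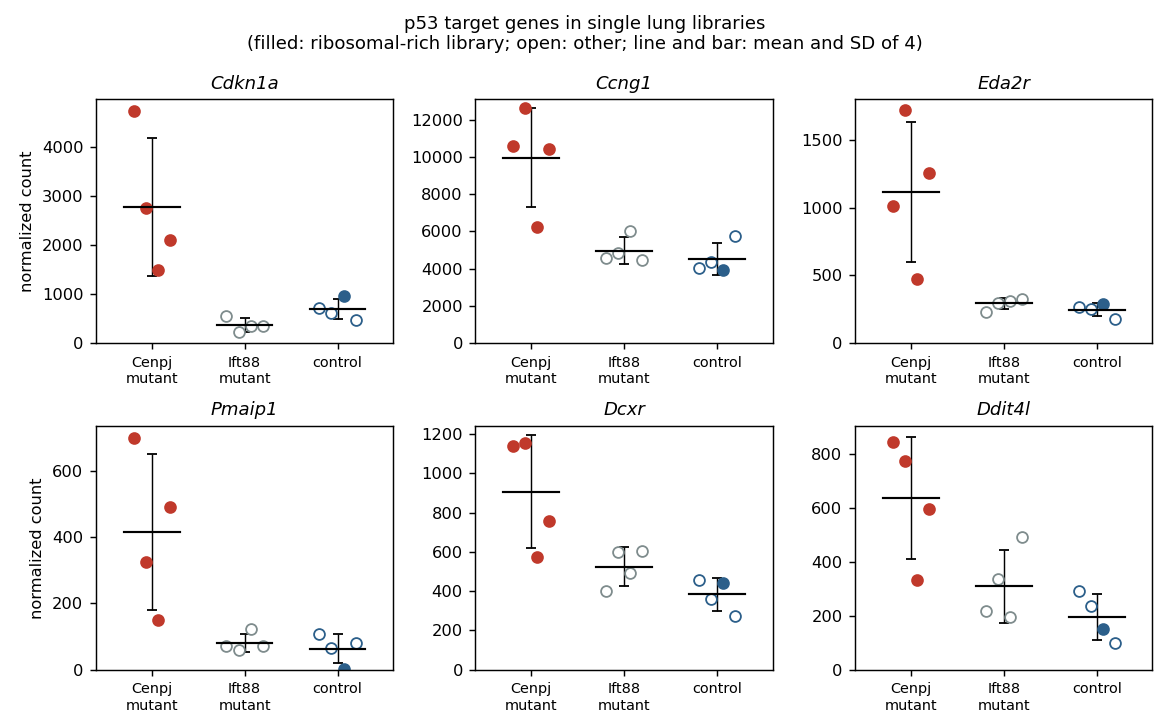
Normalized counts of 6 p53 targets in single lung libraries of Cenpj mutants, Ift88 mutants and controls; filled points are ribosomal-rich libraries, lines and bars are the mean and SD of 4. In each panel all 4 Cenpj mutants lie above all 4 controls, and the filled control point is control lung 3.

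No gene listed for p53 itself, its family, its feedback or the sensors of failed centrosomes passed the test, where 0.513% of all genes did. The list held 18 genes, 0 of which passed, with a median log2 fold change of -0.12 and values of -2.93 to 0.23. The checkpoint kinase genes Atr and Chek2 had all mutants below all controls, at -0.29 and -0.20 (limma, adjusted p = 0.241 and 0.498), so 2 of 18 lay below against 2.74% of all genes. The p53 family genes Trp73 and Trp63 had the lowest values, and neither passed (limma, adjusted p = 0.494 and 0.470). Trp73 was read in no mutant lung and in 2 control lungs, and Trp63 had 43.5, 44.8, 155.3 and 44.9 counts in Cenpj mutant lungs, against 555.5, 294.0, 186.5 and 121.1 in control lungs. Trp53, which encodes p53, differed by 0.11 (SE 0.11; limma, adjusted p = 0.734). Mdm2, its ubiquitin ligase and also a target, differed by 0.13 (SE 0.11; adjusted p = 0.694). Usp28 differed by -0.10 and Trp53bp1, which encodes 53BP1, by -0.15 (limma, adjusted p = 0.736 and 0.634).

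Apoptosis regulators, mitosis and centrosome genes also showed no member past the threshold, where 0.513% of all genes passed. Of 21 apoptosis regulators and caspases 0 passed, although 17 were positive, with a median of 0.18. The initiator caspase Casp8 had a log2 fold change of 0.36 (SE 0.14; limma, adjusted p = 0.310). Of 28 mitosis and spindle checkpoint genes 0 passed, 23 were positive and the median was 0.09. All mutants lay above all controls in 3 of them and below in 1, against 2.68% and 2.74% of all genes. The proliferation marker Mki67 differed by 0.01 (95% interval -0.24 to 0.25). Among 34 centriole and centrosome genes 0 passed and the median was -0.06. The lowest of these was Cntrob, a daughter-centriole protein gene, at -0.44 (SE 0.12; limma, adjusted p = 0.113).

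The hedgehog targets Hhip and Gli1 fell in Cenpj mutant lungs. Of 17 listed targets, 2 fell, 0 rose and 16 of 17 had a negative log2 fold change, with a median of -0.28. The share that fell is read against 0.434% of all genes. All mutants lay below all controls in 4 of the 17, against 2.74% of all genes. The exception in sign, Nkx2-3, is a gut mesenchyme gene that lay above all controls in every mutant, with at most 29.0 counts in any of the 8 lungs.

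Hhip binds and removes hedgehog ligand. It had 4111, 4751, 5746 and 4164 counts in Cenpj mutant lungs, against 7977, 7059, 7604 and 8877 in control lungs. The groups were well apart, with a log2 fold change of -0.76 (SE 0.12; limma, adjusted p = 0.00682). Gli1, the transcriptional activator whose level follows pathway activity, had 14826, 8615, 14143 and 10401 in Cenpj mutant lungs, against 19653, 16741, 18248 and 18875 in control lungs. Mutant lungs 2 and 4 were the lowest, and no mutant reached a control (log2 -0.65, SE 0.14; limma, adjusted p = 0.0449).

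The receptor Ptch1 split its mutants the same way, at 26111, 15878, 25678 and 16414 in Cenpj mutant lungs, against 34804, 27588, 34675 and 27975 in control lungs. The groups did not overlap and the test was not passed (log2 -0.60, SE 0.15; limma, adjusted p = 0.0762). The ligand gene Shh had 899, 337, 1697 and 395 counts in Cenpj mutant lungs, against 1612, 829, 1399.7 and 843 in control lungs. Mutant lungs 2 and 4 were lower than any control, mutant lung 3 was the highest of all 8, and the difference of -0.74 (SE 0.37) did not pass (limma, adjusted p = 0.461). The signal transducer Smo differed by 0.01, Gli2 by -0.18 and Gli3 by -0.06, and none of these passed.

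Other signalling lists held few members past the threshold. Among 21 Wnt targets and inhibitors 1 fell, against 0.434% of all genes, 0 rose and the median was -0.37. That gene was Rnf43, a ubiquitin ligase that removes Wnt receptors. It had 1394, 1537, 1338 and 1259.5 counts in Cenpj mutant lungs, against 2672, 2141, 1995 and 2055 in control lungs. No mutant overlapped a control (log2 -0.67, SE 0.14; limma, adjusted p = 0.0373). Its partner Znrf3 did not overlap either, at -0.56 (SE 0.13; limma, adjusted p = 0.0543). The Wnt target Axin2 was at -0.37 (SE 0.13; adjusted p = 0.244). Tle2, a groucho-family corepressor outside the list, fell to 1625, 2228, 1601 and 1952 in Cenpj mutant lungs, against 5269, 4927, 2867 and 5073 in control lungs (log2 -1.26, SE 0.17; limma, adjusted p = 0.00186). Control lung 3 was the control nearest the mutants. None of 23 FGF genes, 23 BMP, TGF beta and retinoic acid genes, 16 Notch genes or 18 Wnt ligands and receptors passed.

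Lung epithelial genes varied widely among libraries. Of 26 identity and tip genes 1 rose, against 0.0797% of all genes, 0 fell, and 20 were negative, with a median of -0.44. Nkx2-1, the transcription factor that defines lung epithelium, had 5379.9, 3487, 6769 and 2977 counts in Cenpj mutant lungs, against 11821, 9283, 7963 and 6762 in control lungs. The ranges overlapped only where mutant lung 3 exceeded control lung 4 (log2 -0.99, SE 0.23; limma, adjusted p = 0.0601). Sox2, which marks the proximal airway, had 57.7, 257, 620.2 and 183 in Cenpj mutant lungs, against 1860.4, 402, 1827 and 1066 in control lungs. Only mutant lung 3 reached the lowest control (log2 -2.43, SE 0.59; limma, adjusted p = 0.0715). Of 16 proximal airway and multiciliated genes 0 passed, with a median of -0.60. Of 12 oesophagus and tracheal cartilage genes, read for neighbouring tissue, 0 passed, with a median of -0.17. They summed to 47442 and 46771 in control lungs 1 and 3, the controls highest for Sox2. Their sums were 31749 and 24372 in control lungs 2 and 4, and 22959 to 32578 in mutants. The part of neighbouring tissue in the Sox2 difference was not tested.

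Of 28 general epithelial genes 0 passed the test, where 0.513% of all genes did, and the median was -0.10. Epcam, an epithelial adhesion gene, had 7039.7, 4801, 8772 and 4121 counts in Cenpj mutant lungs, against 8992, 4964, 7477 and 5124 in control lungs. These ranges overlapped almost fully, with a log2 difference of -0.12 (95% interval -0.59 to 0.34). Sox9, a distal tip gene, differed by -0.24 (SE 0.30; limma, adjusted p = 0.776). The epithelial member that rose was Sftpb, a surfactant protein gene of later alveolar cells. It had 2005, 1015, 766 and 901 in Cenpj mutant lungs, against 552, 409, 503 and 503 in control lungs (log2 1.15, SE 0.25; limma, adjusted p = 0.0462). Every mutant was above every control. Sftpc, another surfactant gene, overlapped between groups (log2 0.65, SE 0.50; adjusted p = 0.685).

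Among 22 lung mesenchymal transcription factors and their partners, 1 fell, against 0.434% of all genes, 0 rose and the median was -0.25. The gene that fell was Fendrr, a long non-coding RNA transcribed beside Foxf1 and needed for heart and body wall development in mice. It had 7142, 7730.3, 8150.4 and 6859.5 counts in Cenpj mutant lungs, against 19337, 23579, 13621 and 14413 in control lungs. The 4 mutants were close to each other and far below all controls (log2 -1.21, SE 0.17; limma, adjusted p = 0.00194). Foxf1, the forkhead factor of lung mesenchyme and a hedgehog target, had 27218, 14340.4, 26426 and 18064 in Cenpj mutant lungs, against 25425, 25507, 26881 and 23082 in control lungs. Mutant lungs 2 and 4 were low and the other mutants lay among or above the controls (log2 -0.28, SE 0.16; limma, adjusted p = 0.513). Tbx4 and Tbx5, which act in lung bud outgrowth, differed by -0.10 and -0.25, and neither passed.

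**Figure D3:**
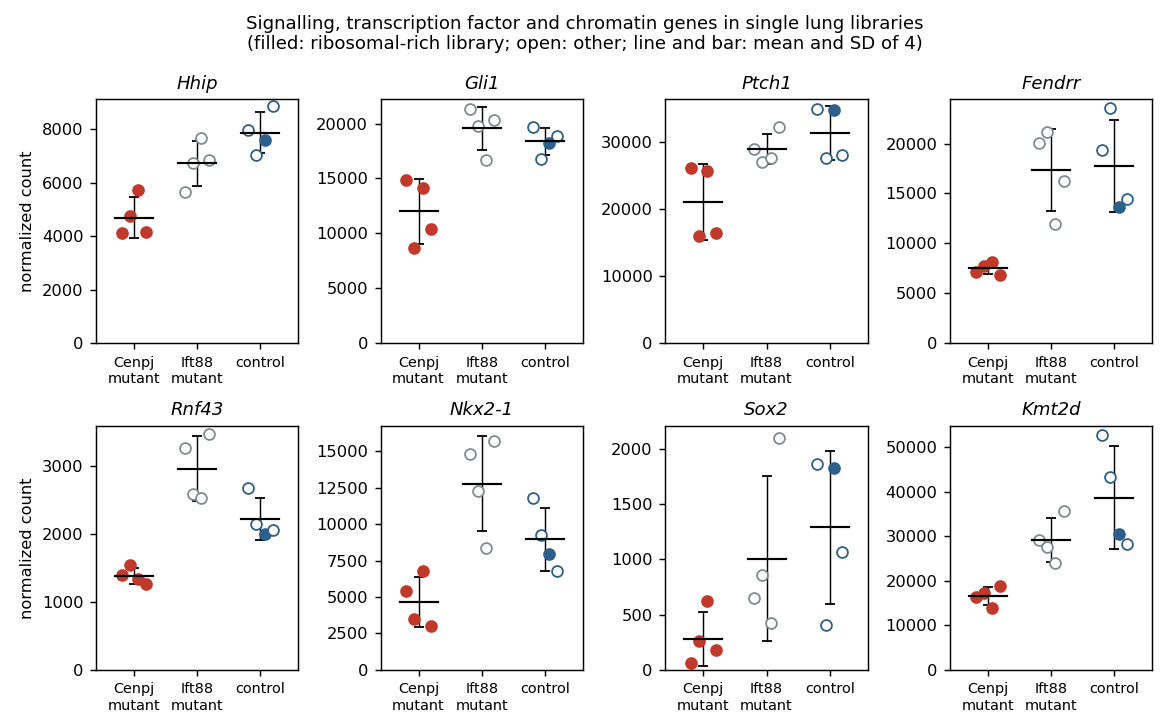
Normalized counts of 8 hedgehog, Wnt, transcription factor and chromatin genes in single lung libraries of Cenpj mutants, Ift88 mutants and controls; filled points are ribosomal-rich libraries, lines and bars are the mean and SD of 4. Fendrr and Kmt2d show 4 close Cenpj mutants below all controls, while Gli1 and Ptch1 show mutants 2 and 4 below mutants 1 and 3.

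Some genes of mesenchymal structure, macrophages and lysosomes rose. Of 20 mesenchymal structure and matrix genes 1 rose, against 0.0797% of all genes, 0 fell and the median was 0.15. The riser was Vim, the intermediate filament vimentin, with 87616, 103765, 96101 and 95102 counts in Cenpj mutant lungs, against 58395, 65082, 70312 and 54412 in control lungs. Both ranges were narrow and apart (log2 0.63, SE 0.10; limma, adjusted p = 0.00682). Of 17 fetal macrophage genes 1 rose, against 0.0797% of all genes, and 15 were positive, with a median of 0.65. The median of this list was 0.42 in Ift88 mutant lungs over the same controls, and 0.05 between Cenpj and Ift88 mutants. C1qc, a complement subunit made by macrophages, had 2019, 1846, 1709.5 and 1450.3 in Cenpj mutant lungs, against 746, 927, 913 and 1466 in control lungs. Control lung 4 lay inside the mutant range (log2 0.83, SE 0.18; limma, adjusted p = 0.0463). The summed macrophage list ran at 15614 to 24079 in mutants, against 11724 to 12819 in controls 1 to 3 and 20507 in control lung 4.

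Of 20 lysosomal and protease genes 3 rose and 0 fell, where 0.0797% of all genes rose. Of the 20, 19 were positive, the median was 0.27, and 8 had all mutants above all controls, against 2.68% of all genes. The median of the list was 0.22 in Ift88 mutant lungs over the same controls, and 0.08 between Cenpj and Ift88 mutants. Other broadly expressed lists also leaned upward without a gene past the threshold. Of 21 oxidative phosphorylation subunits 20 were positive, with a median of 0.21 and 7 above all controls, and of 16 housekeeping genes 14 were positive, with a median of 0.15. Glb1, lysosomal beta-galactosidase, was higher by 0.49 (SE 0.11; limma, adjusted p = 0.0414). The cathepsins Ctsc and Ctsd were higher by 0.59 and 0.45 (limma, adjusted p = 0.0457 and 0.0495). Macrophages are rich in lysosomal enzymes, and the macrophage list moved with these genes, but its part in their rise was not tested. None of 13 smooth muscle genes, 12 mesothelial genes, 21 endothelial genes, 18 red blood cell genes, 19 nerve and neural crest genes or 15 heart muscle genes passed. Within the smooth muscle list the largest values were for the actins Actg2 and Acta2, at 1.41 (SE 0.40) and 1.25 (SE 0.35), with overlapping groups (limma, adjusted p = 0.128 and 0.125).

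**Figure D4:**
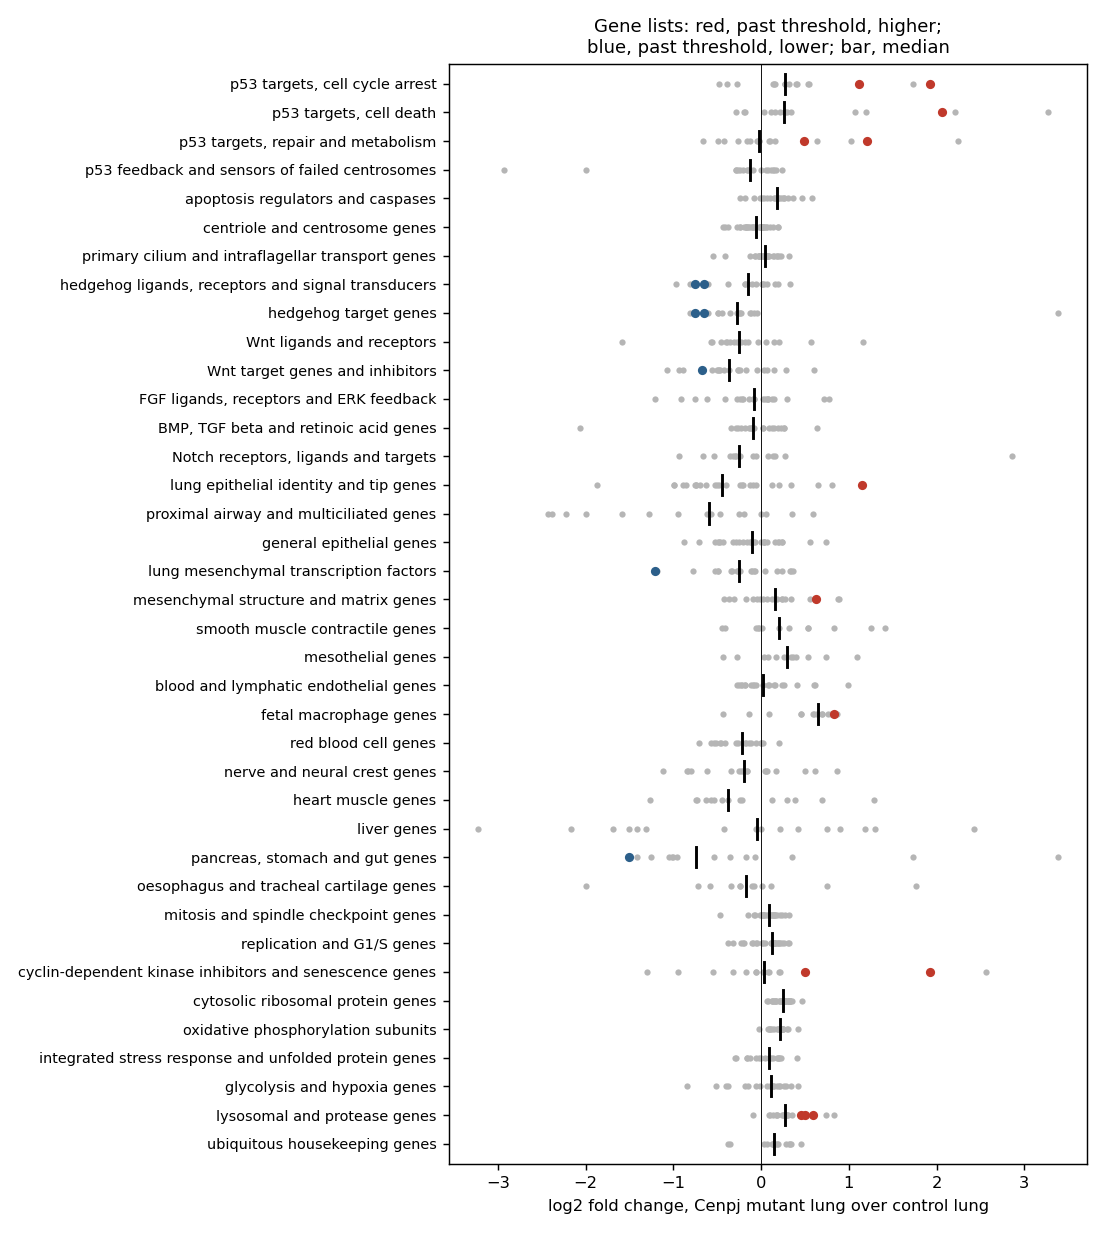
Log2 fold change of Cenpj mutant over control lung for the members of 38 gene lists; 1 point is 1 gene, red is past the threshold and higher, blue is past it and lower, and the bar is the median of the list. Macrophage genes have the highest median at 0.65, and the 3 p53 target lists hold 5 red points.

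A histone gene rose, and most histone and ribosomal protein genes had positive fold changes. Hist1h3d, a replication-dependent histone H3 gene, had 276, 178, 408 and 434 counts in Cenpj mutant lungs, against 20.6, 42.0, 108 and 28.6 in control lungs (log2 2.88, SE 0.58; limma, adjusted p = 0.0319). No mutant was as low as a control, and control lung 3 was the highest control. A family of 62 such genes was picked by gene name after its values were seen, and includes the pseudogenes Hist3h2bb-ps and Hist1h2aj. Of the 62, 1 rose, against 0.0797% of all genes, 53 were positive and the median was 1.41. Several had few counts in controls, which can enlarge this median. Hist1h2bn, at 4.17, had 9.8, 9.0, 164.6 and 0.0 in control lungs. Replication-dependent histone messages lack poly(A) tails. Summed counts of the 62 were 11914 to 17775 in mutants, against 12821 in ribosomal-rich control lung 3 and 6254 to 8880.5 in the other controls. The part of library kind in this difference was not tested. All 30 listed ribosomal protein genes were positive and 0 passed, with a median of 0.25. Their median was 0.23 in Ift88 mutant lungs over the same controls, and 0.006 between Cenpj and Ift88 mutants.

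Several chromatin regulators fell. Kmt2d, a histone H3 lysine 4 methyltransferase, had 16429, 17139.9, 13765 and 18790.3 counts in Cenpj mutant lungs, against 52763, 43349, 30410.1 and 28261 in control lungs. The mutants were all below the controls, which differed widely among themselves (log2 -1.19, SE 0.17; limma, adjusted p = 0.00194). Of the 6 KMT2 and SETD1 genes, grouped after their values were seen, 5 fell, against 0.434% of all genes, and the median was -0.64. Their exonic lengths ran from 6795 bases in Setd1a to 20291 in Kmt2c. The median was 3.71 kb for genes with a mean of 50 or more that did not pass. The part of length in these falls was not tested. Kmt2a was at -0.72, Kmt2b at -0.63, Setd1b at -0.64 and Setd1a at -0.55, and Kmt2c at -0.59 did not pass. The chromatin gene Arid1a, also named after the fact, fell by 0.59 on the log2 scale.

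The falls by rank included genes of several kinds. Kif12, a kinesin, had 189, 205, 420.3 and 270.0 counts in Cenpj mutant lungs, against 1545, 1149, 456 and 1034 in control lungs (log2 -1.89, SE 0.31; limma, adjusted p = 0.00682). Control lung 3 lay just above the highest mutant. Lmtk3, a membrane kinase, had the smallest p of all falls named, with 2141, 3631, 2961 and 3305 in Cenpj mutant lungs, against 7938, 8299, 6842 and 6216 in control lungs (log2 -1.30, SE 0.15; limma, adjusted p = 0.000576). Col7a1, the anchoring fibril collagen of basement membranes, had 559, 609.8, 698 and 843 in Cenpj mutant lungs, against 2094, 1590.2, 1525 and 1429 in control lungs (log2 -1.29, SE 0.18; limma, adjusted p = 0.00194). For both, every mutant was well below every control. Rbpjl, Sbsn, Mast1, Gdpd3, Rgs11, Shisa7 and Ly6h had log2 fold changes of -1.72 to -1.27. Of 14 pancreas, stomach and gut genes tested 1 fell, against 0.434% of all genes, and 11 were negative, with a median of -0.75. These genes summed to 14287 to 21937 in mutants and to 14301.5 to 29954 in controls. The part of neighbouring tissue in these values was not tested. Mir5125 (-1.23) lies inside Srrm2 (-0.70), so the counts of these overlapping genes cannot be told apart.

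Genes that fell had a higher median length and GC content than other genes, given as a description without a test. Their median exonic length was 6.83 kb, against 3.71 kb for genes with a mean of 50 or more that did not pass, and 3.51 kb for genes that rose. Their median GC content was 52.04%, against 46.37% for genes that did not pass and 49.04% for genes that rose. Control lung 3, the ribosomal-rich control, was lower than the other controls by a median of 0.131 over the 136 genes, and control lung 4, which is not ribosomal-rich, by 0.166. Mutants still lay below control lung 3 by a median log2 difference of -0.642 over these genes. Since the genes were chosen on these libraries, the last value is a description.

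Between Cenpj mutant and Ift88 mutant lungs 563 genes passed, or 1.8%, with 213 higher (0.679%) and 350 lower (1.12%). All Cenpj mutant lungs and no Ift88 mutant lung were ribosomal-rich, and these differences in genotype and library kind cannot be told apart. The same Cenpj mutant libraries enter both comparisons, so their results are not independent. Cdkn1a had 4745, 2749.8, 1488 and 2106 counts in Cenpj mutant lungs, against 555, 225, 352 and 347 in Ift88 mutant lungs (log2 2.84; limma, adjusted p = 0.000104). Ccng1 and Eda2r were higher by 0.97 and 1.80 (limma, adjusted p = 0.00559 and 0.00581), with no overlap in either.

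Falls against controls were also falls against Ift88 mutants for several named genes. Hhip differed by -0.52 and Gli1 by -0.73 (limma, adjusted p = 0.0334 and 0.00897). The median of the 17 hedgehog targets was -0.28 in Cenpj mutants and -0.22 in Ift88 mutants over the same controls, and -0.06 between the mutants, and Ptch1 at -0.50 did not pass (limma, adjusted p = 0.110). Fendrr differed by -1.18, Rnf43 by -1.09 and Kmt2d by -0.81 (limma, adjusted p = 0.000949, 0.000430 and 0.0147). The other KMT2 and SETD1 genes that fell against controls, Kmt2a, Kmt2b, Setd1a and Setd1b, differed from Ift88 mutants by -0.39 to -0.27 and did not pass (limma, adjusted p of 0.122 to 0.367). Nkx2-1 was lower by 1.50 on the log2 scale than in Ift88 mutants (limma, adjusted p = 0.00155), where it had 14839, 12261, 8396 and 15688 counts. Sftpb and C1qc behaved otherwise. They differed from Ift88 mutants by -0.11 and 0.05 (limma, adjusted p = 0.927 and 0.970), while Ift88 mutants exceeded the same controls by 1.26 and 0.78 (limma, adjusted p = 0.0196 and 0.0440).

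In intestines of the same genotypes 0 of 31592 genes passed between Cenpj mutants and controls (limma; 1616 at an unadjusted p under 0.05), and the effect differed between organs for 0 of 32098 (limma and edgeR; 1528 at an unadjusted p under 0.05 in limma; 44 by DESeq2). Cdkn1a averaged 1561 ± 148 in Cenpj mutant intestines and 1529 ± 489 in control intestines (SD, n = 4 each), where the log2 fold change was 0.08. The difference between the organs was 1.84 for Cdkn1a (SE 0.47; limma, adjusted p = 0.932, unadjusted p = 0.000545). For Ccng1 the intestinal value was 0.26 and the difference 0.85 (SE 0.22; limma, adjusted p = 0.932). Signs in the intestine were the same as in lung for 133 of the 136 genes that fell and 23 of the 25 that rose. They were the same for 16096 of all 31361, and for 10788 of the 17960 with a mean of 50 or more that did not pass. Library kind ran with genotype in the intestines as well, where all 4 Cenpj mutants and 1 control were ribosomal-rich.

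Calls depended on single libraries. The checks here cover the 32 genes past the threshold that were named by the rule given under processing. They leave out Kmt2d, Kmt2a, Kmt2b, Setd1a, Setd1b and Arid1a, which were named after their values were seen. Of the 32, 11 stayed past the threshold when any 1 of the 12 lung libraries was left out: Eda2r, Cdkn1a, Ccng1, Vim, Kif12, Lmtk3, Col7a1, Tle2, Mir5125, Hhip and Fendrr. Gli1, Rnf43, Dcxr, Exoc4, Sftpb, C1qc, Glb1, Ctsc and Ctsd were among the 21 that did not, with adjusted p of up to 0.160 (limma) in the same direction. Leaving out control lung 2 ended 21 of the 32 calls and leaving out control lung 4 ended 3. The count of all genes past the threshold was 36 without control lung 2 and 407 without control lung 4. When library kind entered the fit of 24 libraries as a covariate, 1 of the 32 kept its call, Ccng1, at 1.09. In a fit of ribosomal-rich libraries alone, added after the data were seen, the 4 mutants faced control lung 3 by itself. There 0 of 32 passed, with the lone control assumed to vary like the other groups. Values in that fit were 1.39 for Cdkn1a, 1.30 for Ccng1, 1.82 for Eda2r, -0.71 for Hhip, -0.64 for Gli1, -0.87 for Fendrr and -1.21 for Lmtk3. Kif12 was at -0.82 and Tle2 at -0.65 there, against -1.89 and -1.26 over all lung libraries.

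**Figure D5:**
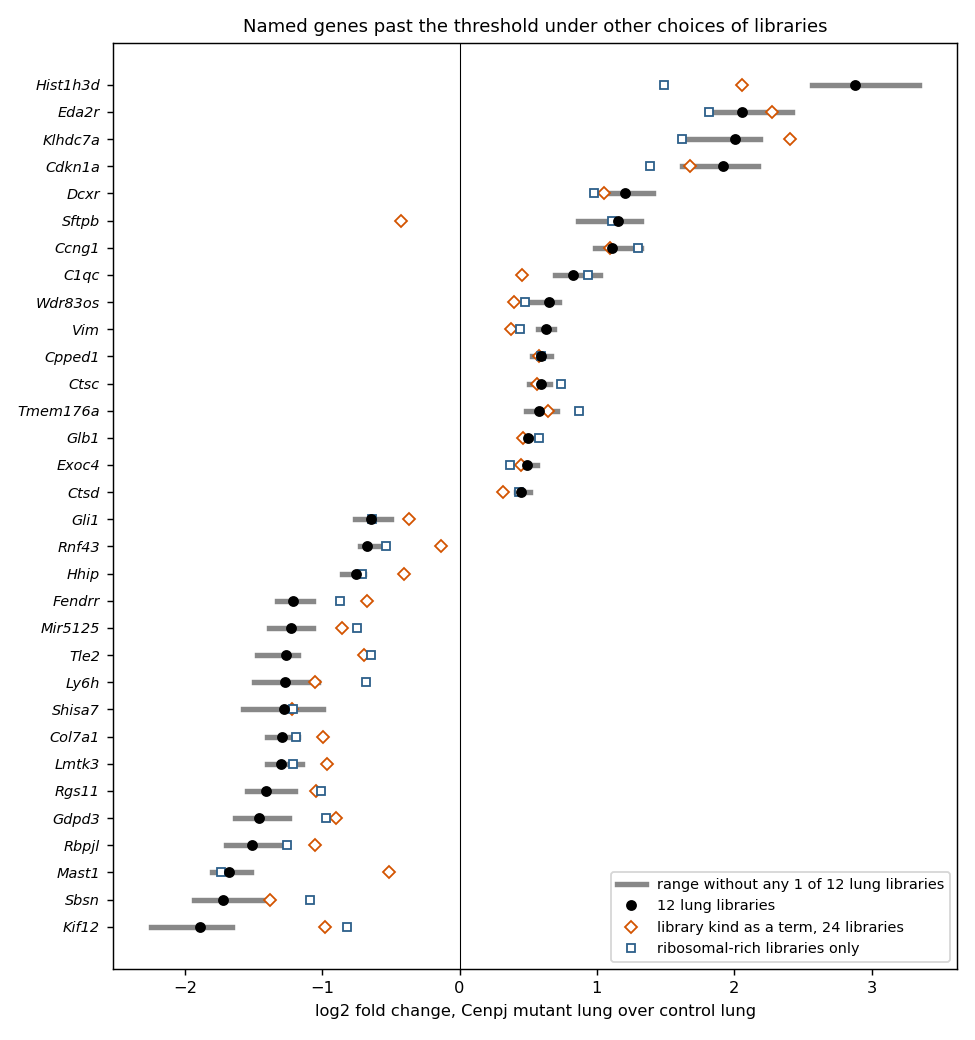
Log2 fold change of Cenpj mutant over control lung for the 32 genes past the threshold that were named by rule. Black points use the 12 lung libraries, and grey bars span the values without any 1 of them. Orange diamonds add library kind over 24 libraries, and blue squares use ribosomal-rich libraries only. All values keep their sign except the orange diamond of Sftpb at -0.43.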

How the data were processed

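Bulk RNA sequencing was done on whole lungs and intestines of mouse embryos, giving 24 libraries in 6 groups of 4 defined by the genotype and organ labels. The deposited table holds, per the file headers, 1 column of normalized counts per library (a signal, made by the authors as gene reads divided by a size factor, judging from the values), for 55536 genes. Per the submitters' processing notes, reads passed through STAR 2.5.2b and DESeq2 1.16.1, with GRCm38 and mm10 as builds. How reads were counted, on which annotation and with what strand setting, is not given, so overlapping and antisense genes are uncertain. GC content in percent is the authors' annotation column in the deposited table, and exonic lengths came from GENCODE M21 on GRCm38. The authors' deposited fold and p-value columns were not used.

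The main test was limma-trend (limma 3.58.1, R 4.3.3) on log2(value + 1) over the 12 lung libraries, for genes with a mean of 1 or more, at a Benjamini-Hochberg adjusted p under 0.05. Whole reads were recovered from low values within 0.051 and used for depth and for edgeR 4.0.16, DESeq2 1.42.0 and limma-voom as alternatives. The script was tested on simulated data of 29136 genes, with 50 genes changed at each fold. It recovered 74% at 0.25-fold, 60% at 0.5-fold, 72% at 2-fold and 84% at 4-fold, with 14 false calls. Genes named were Cenpj, the 12 largest rises and 12 largest falls with symbols, non-overlapping groups and a mean of 50 or more, list members past the threshold and the 2 smallest p of each list. Members and the 38 gene lists were chosen with earlier results of these data known. Counting error and error between libraries were not separated.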

Additional observations from a re-analysis of the deposited data

Results flagged for a closer look

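Of 180 groups of 4 libraries checked for 1 library far from the others, 9 had one, and chance alone gives about 1 in 20. In Cenpj mutant lungs, library 3 was low for Sbsn (85.3, against 189.0 to 192.6 in the other mutants) and high for Rpl8 (148373.5, against 121956.8 to 125691.9). Library 1 was high for Tbx3 (15758.7, against 12021.0 to 12537.7) and for Rhag (1499.8, against 373.1 to 454.8). Library 2 was high for Mir5125 (1364.7, against 901.5 to 977.6), and library 4 was the only mutant with Serpina1a (33.4, against 0.0). In control lungs, library 3 was low for Tle2 (2867.3, against 4926.6 to 5268.6). Library 1 was high for Fbf1 (14635.2, against 12299.6 to 12573.9) and library 4 for Actc1 (1380.8, against 383.3 to 538.1).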

How the results depend on the processing

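The count of genes past the threshold between Cenpj mutant and control lungs (161) was 86 with no filter beyond 1 read, 766 with DESeq2, 7 with sex as a term, 533 with library kind as a term, 69 with the 2 groups alone, 83 with library kind over 24 libraries and 463 in ribosomal-rich libraries only. Of those counts, 82, 156, 3, 11, 69, 3 and 5 genes were shared with the 161. Other settings gave 131 to 206, and leaving out 1 library gave 36 to 407. Against Ift88 mutants (563) the count was 1084 with DESeq2, 236 with sex, 285 with library kind and 36 with library kind over 24 libraries, and 195 to 681 without 1 library. Between organs (0) it was 2 with no filter and 44 with DESeq2. Cenpj ranged from -0.58 to -0.28 without 1 library. The replicate block gave 206 genes, but same-numbered Cenpj mutant and control lungs deviated together with correlations of only 0.076, -0.043, 0.145 and 0.009, so the numbers were not taken to pair samples; the block ended the calls of 6 of the 32 named genes.

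Signs turned for Sftpb (-0.43) with library kind over 24 libraries, and for 2 genes not past the threshold, Lama5 and Actc1. Lama5 was at 0.114 with library kind over 24 libraries. In the 1 comparison given by library kind and by ribosomal-rich libraries, Lama5 was at 0.062 and Actc1 at 0.15. Against Ift88 mutants they turned for Sftpb (-0.4 without Cenpj mutant lung 1 to 0.062 without Cenpj mutant lung 3), Tmem176a (0.18 with library kind), C1qc (-0.019 without Cenpj mutant lung 1 to 0.14 without Cenpj mutant lung 4, -0.004 without Ift88 mutant lung 1, -0.447 with library kind over 24 libraries) and, with the last setting, Wdr83os (-0.003), Vim (-0.023) and Mast1 (0.19). The cause was not tested. With sex as a term, genes read in the male library alone have no spread. The fold changes of the 32 named calls were then 0.785 to 1.12 times those reported, all in the same direction, while the degrees of freedom of the test fell to 10.32, against 19.26 without sex. That range was the same when control lung 1, the 1 male lung, was left out. There 13 of the 32 calls held and 68 genes passed, at 18.76 degrees of freedom. Of the 32 named calls, 31 held with edgeR and with DESeq2, 18 with limma-voom, 12 with the 2 groups alone and 1 with sex. With library kind over the lung libraries, as in ribosomal-rich libraries, 1 control limits the comparison.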
